A study of Mus musculus with 12 samples.

Results

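Carbonic anhydrase transcripts were followed in astrocytes of the adult mouse brain after stroke, using 10 genes of the family: Car2, Car3, Car4, Car7, Car8, Car10, Car11, Car12, Car13 and Car14. They were found by gene name among the 48709 genes of each library, and all 10 passed the filter on low counts that left 15571 genes for testing. All 6 mice were C57BL/6, aged postnatal day 90 to 120, and carried Gfap-CreERT2+/- together with floxed alleles on both chromosomes (f/f). In such animals a Cre recombinase made under the Gfap promoter, which is active in astrocytes, cuts the floxed alleles once tamoxifen is given. Mice 296, 297 and 474, labelled wild-type (WT below), were given corn oil. Mice 295, 298 and 300, labelled Nhe1 Astro-KO (KO below), were given tamoxifen. The WT animals thus also carried Cre and the floxed alleles, and tamoxifen and deletion cannot be told apart in any comparison of KO with WT. Every animal was operated by tMCAO, a stroke model in which the middle cerebral artery on 1 side is blocked and then reopened. After 24 h the brain was dissociated and cells bearing ACSA-2, an astrocyte surface antigen, were taken from the occluded (ipsilateral) and the opposite (contralateral) hemisphere, 1 library each, which gives 4 groups of 3 libraries. Every change with occlusion below is a comparison with the other hemisphere of the same operated mice, and each direction given for genotypes compares the labels KO and WT. The main test compares the groups without pairing the hemispheres of a mouse, and a fit with the mouse as a block was an alternative. No value given here shows that a deletion took place, so KO and WT stand throughout for what the libraries are labelled.

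Carbonic anhydrases are zinc enzymes that convert carbon dioxide and water into bicarbonate and a proton, and back. In brain they buffer pH inside and outside cells and supply bicarbonate to transporters, which in astrocytes couple pH to neuronal activity and lactate export. Car2, Car3, Car7 and Car13 are cytosolic. Car4 is held on the cell surface by a lipid anchor, and Car12 and Car14 span the membrane, so that these act outside the cell. Car8, Car10 and Car11 are carbonic anhydrase-related proteins, which have the fold of the family but lack its catalytic activity.

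The libraries held 11187723 to 15780600 counts. All 10 genes of the astrocyte marker list were detected in every group, the defining markers Aqp4 and Aldh1l1 ranging over the libraries from 189 to 776 and from 191 to 410 CPM (counts scaled to a common library size, here adjusted between libraries by the TMM method). RNA of other cell types was present too. The 10 oligodendrocyte markers summed to 5629 to 23449.8 CPM, against 9353 to 25369 CPM for the 10 astrocyte markers, and the 7 choroid plexus markers summed to 478 to 7737 CPM. No defining marker of these lists was at 0. In bulk RNA, fewer cells of a type and less RNA per cell cannot be told apart. The libraries of mouse 296 deviated together from the means of their groups (r = 0.67 across 13775 genes), and results that change without this mouse are given with and without it.

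Levels between genes were compared in TPM, which is scaled for transcript length. Car2 was the most abundant of the 10 in all 4 groups, with 611 ± 306 TPM in WT contralateral, 814 ± 433 in WT ipsilateral, 485 ± 127 in KO contralateral and 639.6 ± 57.7 in KO ipsilateral libraries (mean ± SD, n = 3 each). It made up between 49.3% and 85.5% of the summed TPM of the 10 genes in a library. Car14 and Car4, both on the outer face of the cell, came next.

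The order of Car14 and Car4 differed with the label. In WT contralateral libraries Car14 stood at 154 ± 2.71 TPM and Car4 at 84.4 ± 8.60 TPM, and in WT ipsilateral libraries at 87.0 ± 15.1 and 52.3 ± 11.7 TPM (SD, n = 3). In KO contralateral libraries Car4 was the higher, at 94.1 ± 6.29 TPM against 72.9 ± 3.85 TPM for Car14. In these 3 groups the libraries' values for the pair did not overlap. In KO ipsilateral libraries they did, at 66.9 ± 3.65 TPM for Car4 and 49.4 ± 13.6 TPM for Car14. Car11 followed in 3 of the 4 groups and came just after Car12 in WT ipsilateral libraries, where Car12 had 21.7 ± 2.55 TPM and Car11 21.2 ± 2.36 TPM, which does not separate them.

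Lower in the order, the related protein Car8 had the seventh place in both WT groups, at 9.03 ± 3.05 and 6.44 ± 2.70 TPM, and the fifth in both KO groups, at 16.3 ± 3.41 TPM contralaterally and 16.3 ± 3.29 TPM ipsilaterally. Car12 went the other way, from 29.7 ± 15.7 TPM in WT contralateral to 8.49 ± 4.52 TPM in KO contralateral libraries. Car13 had group means of 5.55 to 11.4 TPM and Car3 of 1.42 to 7.26 TPM. Car7 and Car10 lay at 0.693 to 2.05 TPM and 1.09 to 1.52 TPM, their libraries overlapping in 3 of the 4 groups and Car7 standing above Car10 in KO contralateral libraries. Car3, Car7 and Car10 rest on few reads, with 3 to 116 counts per library for Car3, 4 to 23 for Car7 and 9 to 45 for Car10.

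**Figure D1:**
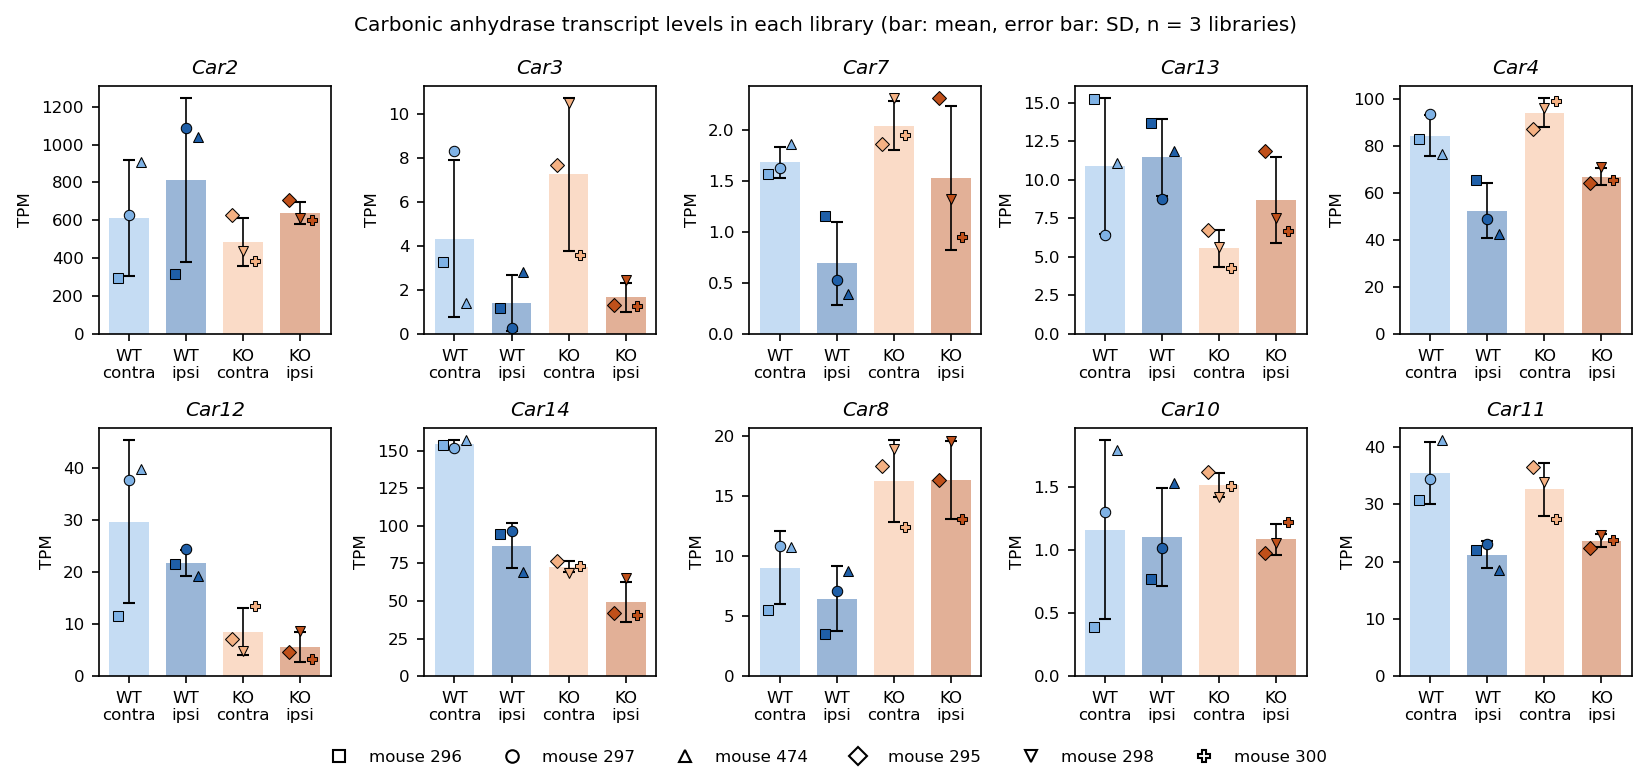
Transcript level in TPM (y axis, from 0) of each of the 10 genes in the 4 groups (x axis), with 1 point per library, marker shapes for mice, bars for the mean and error bars for the SD (n = 3). Car14 sits at 152 to 157 TPM in the WT contralateral libraries and at no more than 96.5 TPM in any other, and Car8 is higher in both KO groups than in both WT groups.

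**Figure D2:**
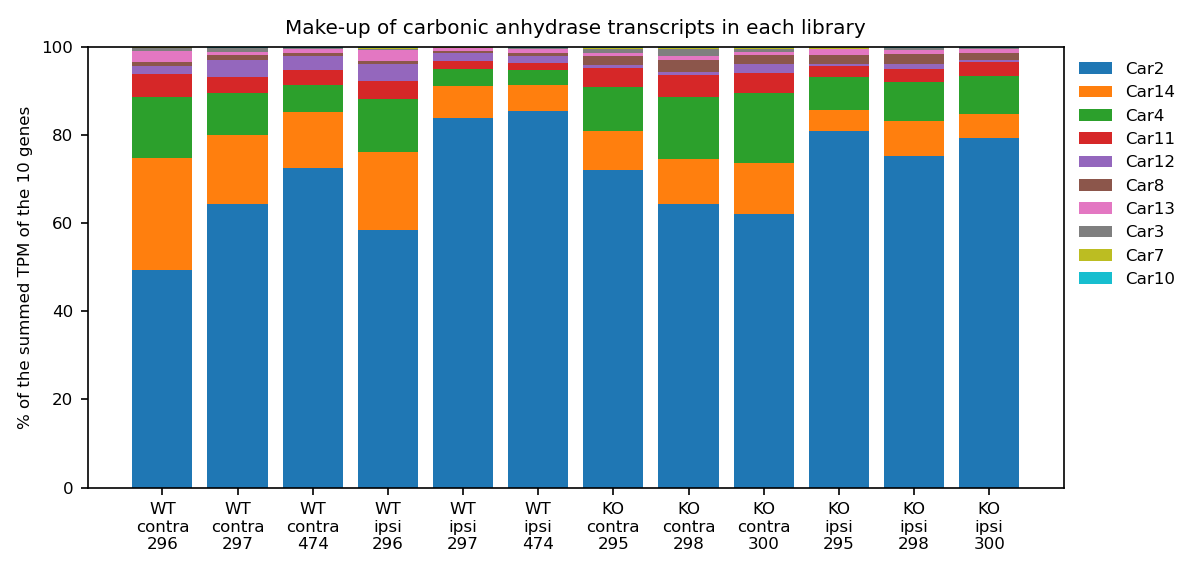
Share of the summed TPM of the 10 genes (y axis, percent) taken by each gene in each of the 12 libraries (x axis: group and mouse). Car2 takes the largest share in every library, from 49.3% to 85.5%, and Car14 between 4.84% and 25.6%.

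Of the 10 genes 3 were called lower on the occluded side of WT mice and none higher: Car14 and Car4, the most abundant enzymes of the cell surface here, and the related protein Car11. They were 1.83-fold, 1.66-fold and 1.73-fold lower than in the other hemisphere. Of all 15571 genes, 19.2% were called in this comparison and 9.54% were called lower. The astrocyte markers were lower in the same comparison, with 7 of 10 called lower and none higher, a median log2 fold change of -0.91, and sums of 15896 to 20432 CPM contralaterally against 9353 to 10484 CPM ipsilaterally, without overlap. In mice labelled KO they summed to 20963 to 25369 CPM contralaterally and 16211 to 25075 CPM ipsilaterally, with 1 of 10 called higher and none lower. Their part in the changes of Car14, Car4 and Car11 was not tested. Over both genotypes together Car3 was called lower as well, and in KO-labelled mice alone none of the 10 was called. Car2, the leading enzyme, was higher on the occluded side in each of the 6 mice but was not called.

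Car14 had 123, 115 and 130 CPM in the contralateral libraries of WT mice 296, 297 and 474, and 73.6, 76.3 and 51.3 CPM in their ipsilateral libraries. KO-labelled mice 295, 298 and 300 had 55.7, 49.8 and 53.5 CPM contralaterally and 32.1, 50.02 and 38.2 CPM ipsilaterally. The 2 hemispheres did not overlap in WT mice, and they did in KO-labelled mice, where mouse 298 had nearly equal values on both sides. The log2 fold change of ipsilateral against contralateral was -0.87 ± 0.18 (SE) in WT mice (edgeR quasi-likelihood test, adjusted p = 0.00729) and -0.40 ± 0.18 in KO-labelled mice (adjusted p = 0.182). Over both genotypes it was -0.64 ± 0.13 (edgeR, adjusted p = 0.00336), and 5 of 6 mice had the lower value on the occluded side. Without the KO ipsilateral library of mouse 298 the change in KO-labelled mice was -0.58 and was called (edgeR, adjusted p = 0.0415, with 0.0415 to 0.445 over the settings tried).

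Car4 was measured at 51.4, 54.7 and 49.0 CPM in WT contralateral libraries (mice 296, 297 and 474) and at 39.2, 30.04 and 24.3 CPM in WT ipsilateral ones. The KO contralateral values of mice 295, 298 and 300 were 48.9, 53.7 and 56.1 CPM, and the ipsilateral ones 37.7, 42.2 and 47.4 CPM. In both genotypes all ipsilateral libraries lay below all contralateral ones, and each of the 6 mice was lower on the occluded side. This amounts to a log2 fold change of -0.73 ± 0.16 in WT mice (edgeR, adjusted p = 0.0111), -0.32 ± 0.16 in KO-labelled mice (adjusted p = 0.234) and -0.53 ± 0.12 over both (adjusted p = 0.00573). When only the 2 WT groups were fitted, the WT change was not called (edgeR, adjusted p = 0.0560, with 0.000698 to 0.0560 over the settings tried).

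Car4 is known from brain capillaries as well as astrocytes. The 8 endothelial markers, all detected in every group, summed to 1273 to 1845 CPM in WT contralateral, 1196 to 1699 in WT ipsilateral, 1219 to 1874 in KO contralateral and 1298 to 1919.9 CPM in KO ipsilateral libraries. These ranges overlap, and in the WT comparison none of the 8 was called. The single markers went both ways there, with 3 of the 8 higher on the occluded side and a median log2 fold change of -0.06. The 6 markers of pericytes and smooth muscle, in contrast, summed to 1069.9 to 1208 CPM in WT contralateral and 598 to 859 CPM in WT ipsilateral libraries, and 3 of the 6 were called lower. In KO-labelled mice they summed to 1115 to 1326 CPM contralaterally and 969.9 to 1289 CPM ipsilaterally, with 0 of 6 called. The part of any of these cells in the Car4 change was not tested.

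Car11, whose role as an inactive relative is unclear, had 18.7, 19.7 and 25.9 CPM in WT contralateral libraries against 12.9, 13.9 and 10.4 CPM in WT ipsilateral ones (mice 296, 297 and 474). The KO values, for mice 295, 298 and 300, were 20.1, 18.5 and 15.2 CPM contralaterally and 12.9, 14.4 and 16.9 CPM ipsilaterally. The hemispheres did not overlap in WT mice and did in KO-labelled mice, in which mouse 300 was higher on the occluded side. Its log2 fold change was -0.79 ± 0.19 in WT mice (edgeR, adjusted p = 0.0154), -0.29 ± 0.19 in KO-labelled mice (adjusted p = 0.347) and -0.54 ± 0.14 over both (adjusted p = 0.0106). The WT call was lost without the contralateral or the ipsilateral library of mouse 474 (edgeR, adjusted p = 0.0773 and 0.0508) and when only the 2 WT groups were fitted (adjusted p = 0.0602), with 0.00174 to 0.0773 over the settings tried.

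Car3, a slow cytosolic enzyme best known from muscle and fat, was the fourth gene called lower over both genotypes, of the 10 listed (33.2% of all genes tested were called, 16.1% lower and 17.1% higher). It had 2.96, 7.06 and 1.32 CPM in WT contralateral and 1.02, 0.242 and 2.33 CPM in WT ipsilateral libraries of mice 296, 297 and 474. KO-labelled mice 295, 298 and 300 had 6.30, 8.53 and 2.96 CPM contralaterally and 1.11, 2.11 and 1.34 CPM ipsilaterally. The KO hemispheres did not overlap, the WT ones did, and mouse 474 alone was higher on the occluded side. Over both genotypes its log2 fold change was -1.79 ± 0.50 (edgeR, adjusted p = 0.0185). It was not called without the WT contralateral library of mouse 297 (adjusted p = 0.0588) or the KO contralateral library of mouse 298 (adjusted p = 0.0503), with 0.00199 to 0.0588 over the settings tried.

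Within a genotype Car3 was not called, at -1.63 ± 0.72 in WT mice (edgeR, adjusted p = 0.130) and -1.95 ± 0.71 in KO-labelled mice (adjusted p = 0.113). In KO-labelled mice DESeq2 called it (adjusted p = 0.0459), as did edgeR on the 2 KO groups alone (adjusted p = 0.0378), with 0.0378 to 0.325 over the settings tried. The 6 ependymal markers, all detected in every group, summed to 568 to 1005 CPM in WT contralateral, 305 to 708 in WT ipsilateral, 987 to 1012 in KO contralateral and 517 to 717 CPM in KO ipsilateral libraries. They were thus lower on the occluded side of KO-labelled mice without overlap, as Car3 was, and their part in the Car3 change was not tested.

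Car2 is the fast cytosolic enzyme that oligodendrocytes and choroid plexus carry at high levels beside astrocytes. It had 227, 451 and 715 CPM in WT contralateral and 233, 821 and 729 CPM in WT ipsilateral libraries of mice 296, 297 and 474. In KO-labelled mice 295, 298 and 300 the values were 435, 301 and 269.9 CPM contralaterally and 511, 448 and 536 CPM ipsilaterally. Both libraries of mouse 296 lay far below those of the other WT mice, and the KO hemispheres did not overlap. On the log2 scale the change was 0.36 ± 0.44 in WT mice (edgeR, adjusted p = 0.609), 0.57 ± 0.45 in KO-labelled mice (adjusted p = 0.427) and 0.46 ± 0.31 over both (adjusted p = 0.277).

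The change of Car2 over both genotypes was called when each mouse served as its own block (log2 fold change 0.45, edgeR, adjusted p = 0.0328) and when mouse 296 was left out (0.50, adjusted p = 0.0449), with 0.0328 to 0.516 over the settings tried. The oligodendrocyte markers summed to 18158 to 19573 CPM in WT contralateral, 14148 to 22269 in WT ipsilateral, 5629 to 7889 in KO contralateral and 9939 to 23449.8 CPM in KO ipsilateral libraries. In KO-labelled mice these markers and Car2 were both higher on the occluded side, without overlap. In mouse 296 the markers stood among those of the other WT mice while Car2 was low. The part of oligodendrocyte RNA in the Car2 values was not tested.

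The other cytosolic enzymes, Car13 and Car7, had few counts. Car13 had 4.42, 3.68 and 2.84 CPM in KO contralateral and 8.15, 5.21 and 5.63 CPM in KO ipsilateral libraries of mice 295, 298 and 300. It was higher on the occluded side in 3 of 3 KO-labelled mice, with a log2 fold change of 0.80 ± 0.34 that was not called (edgeR, adjusted p = 0.166) but was with the mouse as a block (adjusted p = 0.0465, with 0.0465 to 0.404 over the settings tried). In WT mice 296, 297 and 474 Car13 had 11.04, 4.37 and 8.26 CPM contralaterally and 9.61, 6.28 and 7.90 CPM ipsilaterally, which overlap, and the change was 0.01 ± 0.33.

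Car7, an enzyme best known from neurons, had 1.22, 1.19 and 1.49 CPM in WT contralateral and 0.867, 0.403 and 0.282 CPM in WT ipsilateral libraries of mice 296, 297 and 474. These values did not overlap, and the log2 fold change was -1.32 ± 0.46 (edgeR, adjusted p = 0.0626). It was called without the WT ipsilateral library of mouse 296 (-1.89, adjusted p = 0.0240) and without both libraries of that mouse (-1.94, adjusted p = 0.0268), with 0.0240 to 0.188 over the settings tried. In KO-labelled mice Car7 ranged from 1.31 to 1.62 CPM contralaterally and from 0.860 to 1.70 CPM ipsilaterally, a change of -0.27 ± 0.42. Over both genotypes the change was -0.80 ± 0.31 (edgeR, adjusted p = 0.0662). It was called without mouse 296 (adjusted p = 0.0222), without its ipsilateral library alone (adjusted p = 0.0220) and without the KO ipsilateral library of mouse 295 (adjusted p = 0.0488), with 0.0220 to 0.144 over the settings tried.

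The last 3 genes were not called with occlusion. Car8 changed by -0.54 ± 0.33 in WT mice, lower in 3 of 3 of them (edgeR, adjusted p = 0.268, and 0.0278 with the mouse as a block, with 0.0278 to 0.619 over the settings tried), and by 0.17 ± 0.32 in KO-labelled mice. Car12 changed by -0.49 ± 0.46 in WT and -0.49 ± 0.49 in KO-labelled mice, and Car10 by -0.14 ± 0.46 and -0.30 ± 0.46 on the log2 scale.

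Counted over the 10 genes, the median log2 fold change with occlusion was -0.64 in WT mice, beside -0.06 over all genes tested, and -0.29 in KO-labelled mice, beside -0.01. In KO-labelled mice 0 of the 10 were called by edgeR (6.29% of all genes were, 5.45% higher and 0.841% lower), 3 had an unadjusted p under 0.05, and DESeq2 called 1, Car3. Without overlap between the hemispheres stood Car4, Car7, Car11 and Car14, all lower, in WT mice (34.0% of all genes stood apart), and Car3 and Car4, lower, and Car2 and Car13, higher, in KO-labelled mice (38.8% of all genes). The difference of the occlusion change between the genotypes was called for none of the 10 and for 0 of all genes (0%) by edgeR. None of the 10 and 763 of all genes, 4.9%, had an unadjusted p under 0.05, and DESeq2 called 13 genes, none of them among the 10, of which it gave 9 no adjusted p. The differences for Car14, Car4 and Car11, KO minus WT, were 0.47 ± 0.25, 0.41 ± 0.23 and 0.50 ± 0.27 (edgeR, adjusted p = 0.948 each), so that a weaker response in KO-labelled mice is not shown.

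**Figure D3:**
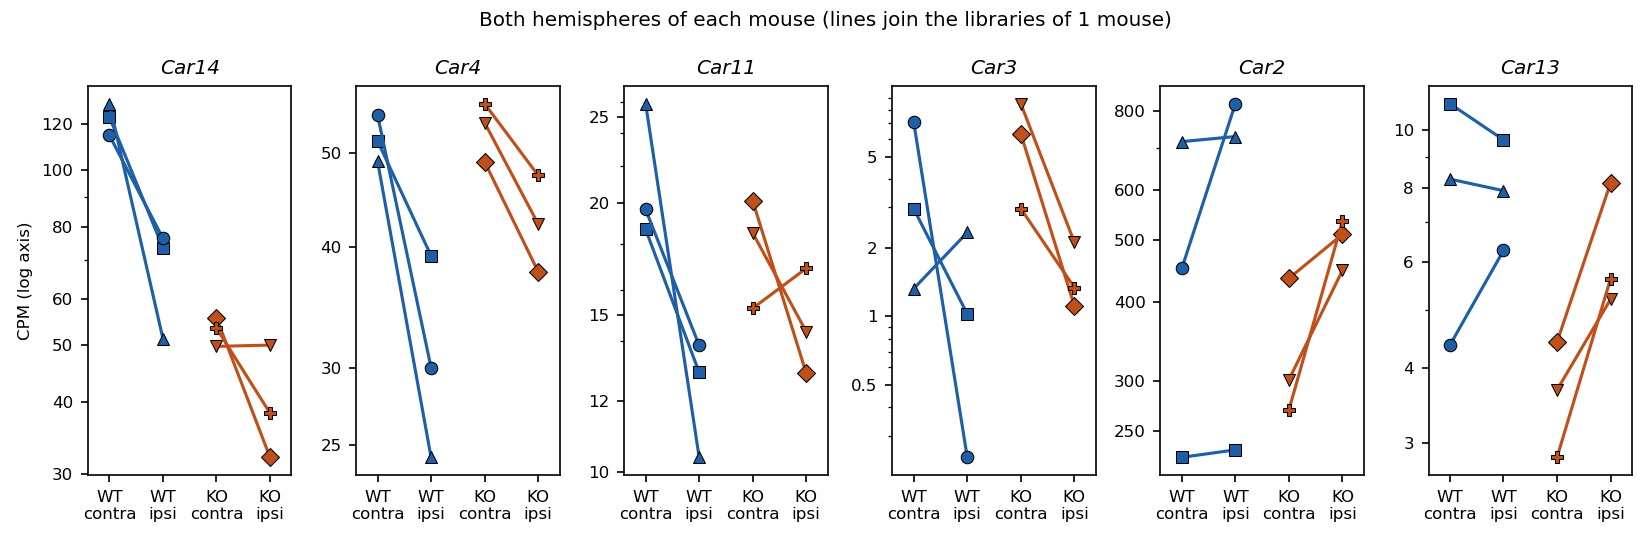
CPM on a log axis (y axis) in both hemispheres (x axis) for 6 genes, with a line joining the libraries of each mouse. Squares, circles, upright triangles, diamonds, inverted triangles and crosses stand for mice 296, 297, 474, 295, 298 and 300, and Car4 falls along all 6 lines while Car2 rises along all 6.

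**Figure D4:**
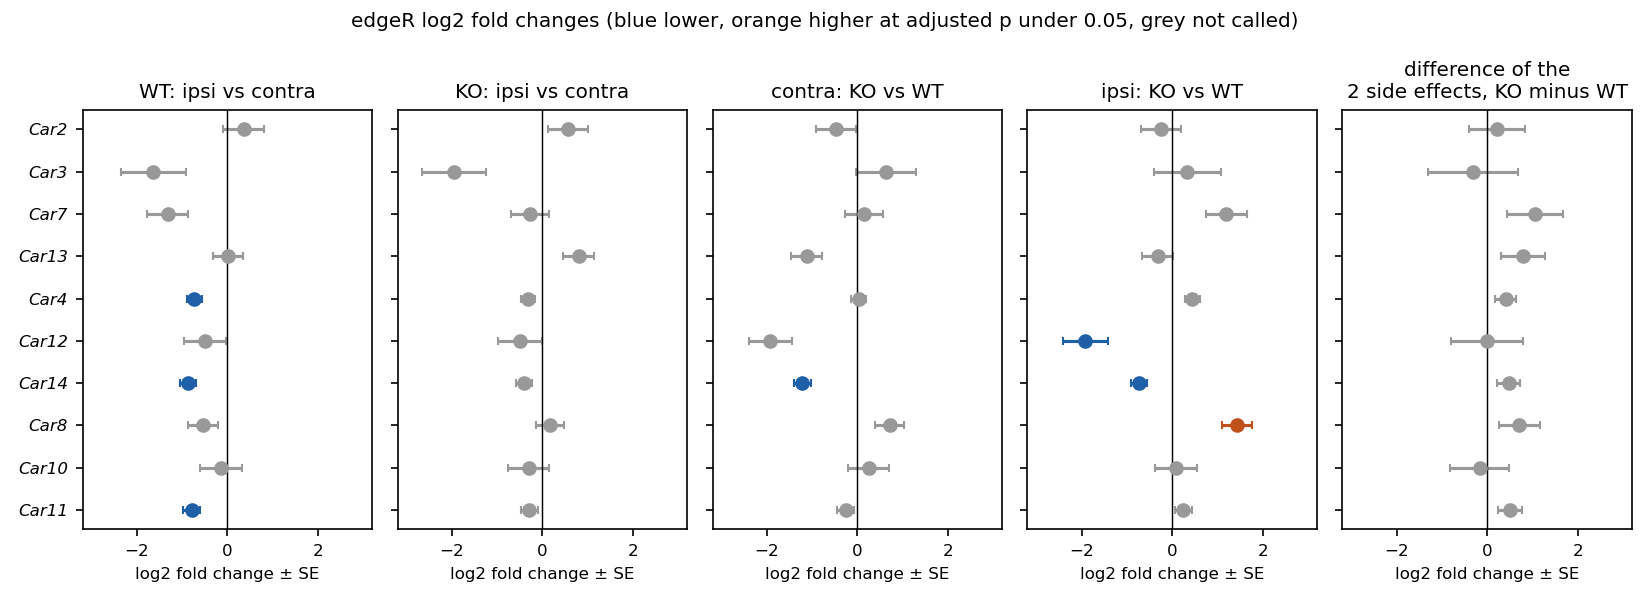
Log2 fold change (x axis) with its SE as error bar for each of the 10 genes (y axis) in 5 comparisons, blue for called lower, orange for called higher and grey for not called by edgeR. With occlusion Car4, Car14 and Car11 are called in WT mice and none in KO-labelled mice, the last panel shows that none of the differences between the genotypes is called, and Car8 is the 1 gene called higher.

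Between the genotypes Car14 was lower in libraries labelled KO than in those labelled WT in both hemispheres, and on the occluded side Car12 was also lower and Car8 higher. Contralaterally 1 of the 10 was called, where 1.5% of all genes were called, 1.41% lower and 0.0835% higher. Ipsilaterally 3 of the 10 were called, 2 lower and 1 higher, where 6.31% of all genes were called, 1.98% lower and 4.33% higher. Without overlap between KO and WT stood Car8 and Car14 contralaterally (24.5% of all genes) and Car8, Car12 and Car14 ipsilaterally (23.9%).

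Car14 in KO contralateral libraries, given above, was less than any WT contralateral value, 2.32-fold lower on average (log2 fold change -1.21 ± 0.18, edgeR, adjusted p = 0.0112). This call was lost without the KO contralateral library of mouse 298 (-1.17, adjusted p = 0.0906) or of mouse 300 (-1.22, adjusted p = 0.0834), fits in which no gene at all was called, with 3.55e-07 to 0.0906 over the settings tried. Ipsilaterally Car14 was 1.67-fold lower (-0.74 ± 0.18, edgeR, adjusted p = 0.0330). This call was lost without the WT ipsilateral library of mouse 296 (adjusted p = 0.0922) or 297 (0.143), without the KO ipsilateral library of mouse 295 (0.114) or 300 (0.0847), without both libraries of mouse 296 (0.0798) and when only the 2 ipsilateral groups were fitted (0.121), with 0.00362 to 0.143 over the settings tried. The log2 fold change stayed between -0.94 and -0.59 in all of these. The 10 oligodendrocyte markers summed to 18158 to 19573 CPM in WT and 5629 to 7889 CPM in KO contralateral libraries. Of these markers 4 were called lower in KO and 0 higher there, with a median log2 fold change of -1.41. Ipsilaterally they summed to 14148 to 22269 CPM in WT and 9939 to 23449.8 CPM in KO, with 2 called lower, 0 higher and a median of -0.96. The part of oligodendrocyte RNA in the Car14 difference was not tested.

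Car14 shares 445 of its 2543 exon bases, 17.5%, with Aph1a on the opposite strand, and the strand of counting is not given in the sources used here, so reads of the overlap cannot be assigned. Aph1a, a subunit of gamma-secretase, had mean levels of 118, 107, 119 and 124 CPM in WT contralateral, WT ipsilateral, KO contralateral and KO ipsilateral libraries and was called in no comparison. The group means of Car14 were 123, 67.1, 53.0 and 40.1 CPM in the same order.

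Car12 had 16.5, 50.9 and 58.6 CPM in WT contralateral and 29.8, 34.5 and 25.4 CPM in WT ipsilateral libraries of mice 296, 297 and 474. The values in KO-labelled mice 295, 298 and 300 were 9.16, 6.25 and 17.7 CPM contralaterally and 6.22, 11.96 and 5.35 CPM ipsilaterally. The genotypes did not overlap on the occluded side, and on the other side the WT library of mouse 296 fell among the KO values. Car12 was 3.78-fold lower ipsilaterally (log2 fold change -1.92 ± 0.49, edgeR, adjusted p = 0.0392). Contralaterally it had -1.92 ± 0.48 (edgeR, adjusted p = 0.0770), which was called by DESeq2 (adjusted p = 0.00261), without the WT contralateral library of mouse 296 (-2.30, adjusted p = 0.0224) and without both libraries of that mouse (-2.30, adjusted p = 0.0208), with 0.00261 to 0.321 over the settings tried.

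The ipsilateral call of Car12 was lost without the WT library of mouse 296 (adjusted p = 0.0832) or 297 (0.134), without the KO library of mouse 295 (0.137), 298 (0.0564) or 300 (0.115), and with no filter beyond 1 count (0.0753), with 0.00131 to 0.137 over the settings tried. The log2 fold change was between -2.37 and -1.73 in all of them. The counts were also set against the reads implied by the deposited RPKM and the GENCODE vM21 exon length, relative to the median gene. This ratio was 0.597 for Car12 (7597 exon bases) and 0.676 for Car7 (3637 exon bases). A shorter length behind the deposited RPKM gives such a ratio, so it does not show that reads are missing from the counts. In the other 8 genes the counts matched the RPKM at the GENCODE length.

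Choroid plexus, the epithelium that secretes cerebrospinal fluid, is known to carry Car12. Its 7 markers, all detected in every group, summed to 4075 to 7737 CPM in WT contralateral, 2447 to 5963 in WT ipsilateral, 718 to 2003 in KO contralateral and 478 to 1193 CPM in KO ipsilateral libraries. Between the genotypes 1 of the 7 was called contralaterally, Ttr, and 2 ipsilaterally, Ttr and Folr1, all lower in KO. The medians of the list were -0.91 and -0.92, and Otx2, named after its values were seen, had -0.15 ± 0.29 and -0.05 ± 0.29. Most of each sum was Ttr, with means of 5631, 3743, 1100.3 and 666 CPM in the 4 groups in the order above. Ttr, which carries thyroid hormone in cerebrospinal fluid, was lower in libraries labelled KO than in those labelled WT on both sides, at -2.36 ± 0.50 contralaterally (edgeR, adjusted p = 0.0388) and -2.49 ± 0.50 ipsilaterally (adjusted p = 0.0164). The part of choroid plexus RNA in the Car12 difference was not tested.

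Car8, an inactive relative known from Purkinje cells of the cerebellum, where it binds the receptor for inositol trisphosphate, was the 1 member called higher. It had 6.70, 12.4 and 13.5 CPM in WT contralateral and 4.10, 8.46 and 9.81 CPM in WT ipsilateral libraries of mice 296, 297 and 474. In KO-labelled mice 295, 298 and 300 it had 19.3, 20.7 and 13.8 CPM contralaterally and 18.8, 22.9 and 18.5 CPM ipsilaterally. Every KO library was above every WT library of its side. Ipsilaterally the difference was 2.69-fold (log2 fold change 1.43 ± 0.33, edgeR, adjusted p = 0.0265), and contralaterally 0.72 ± 0.32 was not called (adjusted p = 0.336).

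The ipsilateral call of Car8 was lost without the WT library of mouse 296 (adjusted p = 0.0650) or 297 (0.0906), without the KO library of mouse 295 (0.0642), 298 (0.0929) or 300 (0.0595), and when only the 2 ipsilateral groups were fitted (0.0814), with 0.000864 to 0.0929 over the settings tried. The log2 fold change was between 1.14 and 1.70 in all of them. The astrocyte markers summed to 9353 to 10484 CPM in WT ipsilateral and 16211 to 25075 CPM in KO ipsilateral libraries, and 7 of the 10 were called higher in KO. Contralaterally they summed to 15896 to 20432 CPM in WT and 20963 to 25369 CPM in KO libraries, with 0 of 10 called. Their part in the Car8 difference was not tested.

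The remaining members were not called between the genotypes. Car4, at 0.03 ± 0.16 contralaterally, had 0.45 ± 0.16 ipsilaterally (edgeR, adjusted p = 0.140). The ipsilateral difference was called without the WT ipsilateral library of mouse 296 (0.65, adjusted p = 0.0420) and without both libraries of that mouse (0.65, adjusted p = 0.0314), with 0.0314 to 0.316 over the settings tried. Car13 had -1.12 ± 0.34 contralaterally (edgeR, adjusted p = 0.160) and -0.32 ± 0.33 ipsilaterally, and Car7 had 0.15 ± 0.42 and 1.20 ± 0.46 (adjusted p = 0.15 ipsilaterally). Car2, Car3, Car10 and Car11 had differences of -0.47 to 0.64 contralaterally and -0.25 to 0.33 ipsilaterally. The median over the 10 genes was -0.11 contralaterally, beside -0.0016 over all genes, and 0.17 ipsilaterally, beside 0.02.

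**Figure D5:**
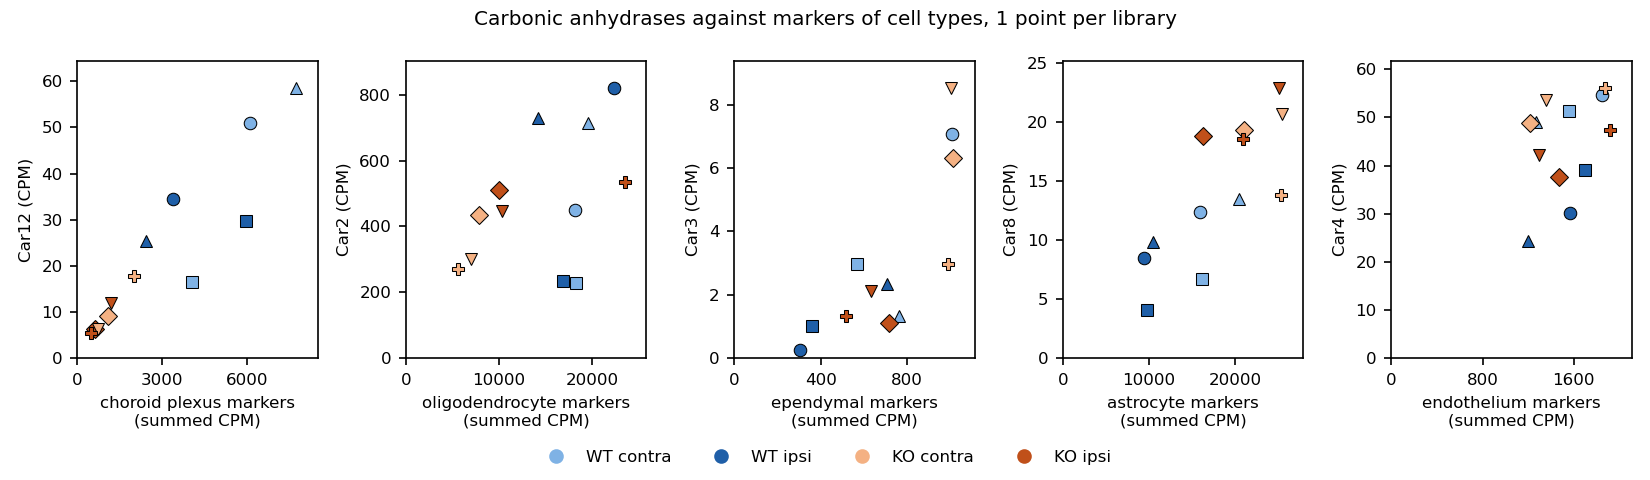
CPM of 5 carbonic anhydrases (y axes) against the summed CPM of markers of a cell type (x axes), 1 point per library, coloured by group, with marker shapes for mice as in the plot of hemispheres. Choroid plexus markers are lowest in the KO groups (478 to 2003 CPM), where Car12 is at 5.35 to 17.7 CPM. In the WT groups Car12 is at 16.5 to 58.6 CPM, so the ranges overlap. Car4 spreads from 24.3 to 56.1 CPM over a range of 1196 to 1919.9 CPM of endothelial markers.

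For each member the genes of most similar pattern were taken as the 3 with the highest Pearson correlation of log2 CPM over the 12 libraries, among 12012 genes. These libraries share 4 groups and 6 mice, so the values describe a pattern and carry no test. Car12 was closest to Enpp2 (r = 0.99), Kcnj13 (0.98) and Kl (0.97), of which Kcnj13 and Kl are on the choroid plexus list. Car2 was closest to Tppp (0.96), a tubulin-binding protein of oligodendrocytes, then Aven and Commd1 (0.95 each). Car8 was closest to the neutral amino acid transporter Slc1a4 (0.97), Tnfrsf19 and Anp32a (0.96 each), and Car14 to Ttyh2, Dmpk (0.96 each) and Shroom1 (0.94).

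For Car4 the closest genes were Zfp775, Gatsl3 and Tmem204 (0.97, 0.97 and 0.96), and for Car11 they were Rab3a, Neil1 and Nsmf (0.97, 0.95 and 0.95). Car3 was nearest to Epha7, Sobp and Ak8 (0.96, 0.95 and 0.95). The closest genes were Pde4c, Zic2 and Bco2 for Car7 (0.92 each), Fam114a2, Morn2 and Fancc for Car10 (0.92, 0.90 and 0.90), and Ccdc94 and Arl8a for Car13 (0.90 and 0.89).

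The positions are those of mm10. Car13, Car3 and Car2 lie within 259 kb of chromosome 3 with Car1 among them, Car13 at chr3:14641727-14663002, Car3 at chr3:14863512-14872523 and Car2 at chr3:14886273-14900770. Car3 was lower on the occluded side in 5 of 6 mice, Car2 higher in 6 of 6 and Car13 higher in 4 of 6. Car14 lies apart on the same chromosome, at chr3:95897768-95904691, on the minus strand. Car4 spans chr11:84957786-84966044 and Car11 chr7:45699843-45704682.

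Since Car14, Car4 and Car11 were the 3 genes called lower with occlusion in WT mice, the 250 bases before their RefSeq starts are shown (GRCm38.p6, the mm10 assembly), which are chr3:95904686-95904935 on the minus strand, chr11:84957504-84957753 on the plus strand and chr7:45699554-45699803 on the plus strand. RefSeq promoters were matched for 6 of the 10 members. For Car11 RefSeq gives 2 starts, of which 1 is used, and the GENCODE start lies 39 bases downstream of it, so this window was not matched to a GENCODE transcript. Capitals mark matches, on either strand, to any of 7 motifs: ACGTG (the core of the hypoxia response element), TGANTCA (AP-1), TTCNNNGAA (STAT), TGACGTCA (cyclic AMP response element), the TATA box written as TATAAA, the GC box written as GGGCGG, and the CCAAT box.
Car14: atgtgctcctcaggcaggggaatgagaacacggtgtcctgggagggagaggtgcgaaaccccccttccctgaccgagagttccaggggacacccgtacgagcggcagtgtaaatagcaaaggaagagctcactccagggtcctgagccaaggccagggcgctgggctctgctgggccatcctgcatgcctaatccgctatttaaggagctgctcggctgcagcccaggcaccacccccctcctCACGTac
Car4: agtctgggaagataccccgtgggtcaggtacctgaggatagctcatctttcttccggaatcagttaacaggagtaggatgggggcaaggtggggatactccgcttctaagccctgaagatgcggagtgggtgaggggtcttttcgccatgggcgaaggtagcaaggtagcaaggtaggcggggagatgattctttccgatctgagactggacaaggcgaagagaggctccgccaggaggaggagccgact
Car11: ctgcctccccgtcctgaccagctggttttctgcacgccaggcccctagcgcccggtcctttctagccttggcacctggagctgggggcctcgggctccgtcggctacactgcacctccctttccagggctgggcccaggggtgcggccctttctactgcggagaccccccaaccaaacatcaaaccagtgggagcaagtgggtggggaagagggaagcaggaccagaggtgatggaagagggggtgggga

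The Car14 window held 1 match, ACGTG on the reverse strand, which begins 7 bases before the start. This motif was found in 16.6% of 32851 windows of the same length. The windows of Car4 and Car11 held none of the 7. Their GC content was 62.0%, 56.4% and 65.6% for Car14, Car4 and Car11, against a median of 52.4% over all windows. These letters describe the sequence, and no binding was measured here.

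Of the other carbonic anhydrases, 4 of 6 had enough counts to be tested. Over both genotypes 3 of these 4 were called lower with occlusion and none higher, where 16.1% of all genes tested were called lower, and within WT or KO-labelled mice and between the genotypes 0 of 4 were called by edgeR. The 3 were Car9, a hypoxia-induced enzyme of the cell surface, at -1.08 ± 0.28 (edgeR, adjusted p = 0.0137), Car1, a cytosolic enzyme abundant in red blood cells, at -1.85 ± 0.59 (adjusted p = 0.0309), and mitochondrial Car5a at -1.50 ± 0.53 (adjusted p = 0.0471), the last named after its value was seen. Car1 had 4 to 21 (WT) and 11 to 23 (KO) counts contralaterally, and 2 to 4 and 0 to 9 ipsilaterally. Car5a had 3 to 15 and 12 to 33 contralaterally, and 0 to 6 and 6 to 8 ipsilaterally. No ipsilateral library of either reached the filter's minimum count of 10. Both thus passed the filter through contralateral libraries, which favours a call of lower, so no conclusion is drawn from the 3 of 4. Car9 had 15.1, 33.6 and 21.2 CPM in WT contralateral and 9.77, 4.99 and 15.2 CPM in WT ipsilateral libraries of mice 296, 297 and 474. In KO-labelled mice 295, 298 and 300 it had 31.9, 37.7 and 31.1 CPM contralaterally and 20.8, 21.8 and 9.65 CPM ipsilaterally, so that all 6 mice were lower on the occluded side.

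Bicarbonate transport, which carries the product of these enzymes across membranes, was measured through 10 of 12 listed genes. In WT mice 1 was called higher with occlusion and 3 lower, where 9.61% of all genes were called higher and 9.54% lower, with smallest p for the anion exchanger Slc4a3 (-0.87 ± 0.21, edgeR, adjusted p = 0.0159) and the sodium bicarbonate cotransporter Slc4a4 (-0.89 ± 0.25, adjusted p = 0.0274). In KO-labelled mice 0 of 10 were called. Between the genotypes the anion exchanger Slc4a2 was lower in KO contralaterally (-0.70 ± 0.14, edgeR, adjusted p = 0.0295). Ipsilaterally Slc4a4, a main bicarbonate carrier of astrocytes, was higher in KO (1.28 ± 0.25, edgeR, adjusted p = 0.0152) and Slc4a5, known from choroid plexus, lower (-2.02 ± 0.47, adjusted p = 0.0282). The medians of the list were -0.15 with occlusion in WT mice and -0.38 in KO-labelled mice, and 0.06 and -0.12 between the genotypes contralaterally and ipsilaterally.

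Of the listed proton and lactate transporters 13 of 14 were tested. With occlusion 2 were called higher in WT mice, the lactate and proton exporter Slc16a3 (1.17 ± 0.27, edgeR, adjusted p = 0.0114) and the proton channel Hvcn1 (1.72 ± 0.55, adjusted p = 0.0475). In KO-labelled mice 1 was called, Slc16a3 (1.59 ± 0.27, edgeR, adjusted p = 0.0109). Over both genotypes 4 were higher and 2 lower, where 17.1% of all genes were called higher and 16.1% lower. Between the genotypes 0 were called contralaterally and 1 ipsilaterally, Emb, a partner protein of lactate transporters, which was lower in KO (-0.98 ± 0.25, edgeR, adjusted p = 0.0359). The medians of this list were 0.0050 in WT mice and -0.02 in KO-labelled mice with occlusion, and 0.12 and 0.07 between the genotypes contralaterally and ipsilaterally. The 8 microglial markers summed to 393 to 446 CPM in WT contralateral and 681 to 1062 CPM in WT ipsilateral libraries, with 0 of 8 called. In KO-labelled mice they summed to 678 to 1087 CPM contralaterally and 235 to 1797 CPM ipsilaterally. The part of microglial RNA in the Hvcn1 change was not tested.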

How the data were processed

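Each library comes with a table of 48709 genes. Its deposited expression values, all whole, were read as the authors' counts per gene. Deposited TPM served for levels between genes and deposited RPKM only to check the counts. Per the submitters' processing notes the build is mm10; for aligner, counter and strand the sources used here give nothing. Of the gene IDs 48349 matched GENCODE vM21.

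Genes were kept by filterByExpr (minimum count 10), scaled by TMM and fitted in edgeR 4.0.16 (R 4.3.3) by the robust quasi-likelihood test with 1 term per group over all 12 libraries (8 residual degrees of freedom). Calls were made at 0.05 after Benjamini-Hochberg adjustment over 15571 genes. The SE is the log2 fold change divided by the square root of F, an approximation. The procedure was tested on simulated data. Alternatives were DESeq2 1.42.0, RLE scaling, a looser filter (1 count) and a stricter one (1 CPM in each library of a group), the compared groups alone, the mouse as a block, limma 3.58.1 on log2(TPM + 1) and each library left out. Leaving out mouse 296 was added after seeing the data. Each table belongs to 1 mouse and hemisphere, and the animal number in the labels pairs the hemispheres. Deviations from the group means correlated between the hemispheres at 0.67, -0.01, 0.39, 0.36, 0.42 and 0.19 in mice 296, 297, 474, 295, 298 and 300.

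The members and lists were chosen with earlier results of these data known. All members were named, with the 3 genes of most similar pattern for each, up to 2 genes of smallest p in a list and the defining markers. Over all libraries, neuronal markers summed to 30.4 to 90.3 CPM, neutrophil 12.1 to 109.7, erythroid 90.2 to 247, microglial 235 to 1797 and oligodendrocyte precursor 162 to 1246 CPM. The level of the targeted gene, and some results that the naming rule picked, are not reported here.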

Additional observations from a re-analysis of the deposited data

How the results depend on the processing

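Of 371 values of single members under settings that use all libraries, 355 kept their direction and their side of the threshold, as did 467 of 530 in fits without 1 library or mouse. The exceptions among called members stand beside each result. Reversed signs came from changes near 0. Car10 with occlusion in WT mice had 0.0047 in TPM, and the genotype difference in the change of Car12 was -0.00090 with RLE scaling, -0.0067 with no filter, -0.0998 with the replicate block and -0.274 in TPM.

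Counts of calls moved more. Fitting only the groups compared called 1 member and 1579 genes with occlusion in WT mice, 1 and 1790 in KO mice, and 1 and 196 between the ipsilateral groups. With the mouse as a block 4641 genes were called with occlusion in WT mice, and 1 member and 2498 genes in KO mice. The block changed no other call beside those of Car8, Car13 and Car2 given above, and the genotype comparisons could not be fitted with it, since a mouse has 1 genotype. DESeq2 called 1 member and 2057 genes with occlusion in KO mice, 2 and 656 between the contralateral groups, 1756 genes between the ipsilateral groups and 13 for the difference. TPM gave 552 genes with occlusion in KO mice and 149 between the contralateral groups. The cause of these moves was not tested, and fits of 2 groups also use fewer libraries.

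Leaving out libraries gave 2 to 4 members and 1435 to 3610 genes with occlusion in WT mice, 0 to 1 and 23 to 2282 in KO mice, and 3 to 6 and 3689 to 5793 over both. It gave 0 to 2 members and 0 to 333 genes between the contralateral groups, 0 to 3 and 65 to 1168 between the ipsilateral groups, and 0 for the difference. The KO count of 979 genes fell to 171, 23 and 86 without the contralateral library of mouse 295, 298 or 300 and to 201 and 264 without the ipsilateral one of 295 or 300, and rose to 2282 without that of 298. The WT count of 2982 fell to 1778, 1435 and 1557 without the contralateral or ipsilateral library of mouse 297 or the contralateral one of 474. Between the ipsilateral groups 983 fell to 496 and 65 without the WT library of mouse 296 or 297, and to 518, 380 and 567 without the KO library of 295, 298 or 300. Signs turned in some of these fits for uncalled changes only. With occlusion these were Car10 (-0.54 to 0.41) and Car13 (-0.28 to 0.33) in WT mice, Car12 in KO mice (-0.91 to 0.036) and Car10 over both (-0.42 to 0.039). Contralaterally they were Car10 (-0.16 to 0.79), Car2 (-0.80 to 0.015) and Car4 (-0.0100 to 0.088), and ipsilaterally Car10 (-0.14 to 0.38), Car2 (-0.63 to 0.051) and Car3 (-0.14 to 1.28). For the difference they were Car10 (-0.74 to 0.24), Car2 (-0.31 to 0.54), Car12 (-0.45 to 0.53) and Car3 (-1.14 to 0.62).

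With 3 mice per group and 3 to 116 counts per library for Car3, Car7 and Car10, a change that was not called is not shown to be absent. No sham-operated mice were analysed here, and tamoxifen, deletion and the RNA of other cell types differ together between KO and WT.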
